A study of Mus musculus with 6 samples.

Results

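The muscle glycolytic enzymes and the muscle fructose bisphosphatase were followed through 10 genes. They were chosen by symbol as the main muscle forms of steps from glucose to pyruvate, together with the opposing enzyme Fbp2. Triosephosphate isomerase is not among them, so not every step is covered. All 10 were found among the 53947 genes of the deposited tables, and all 10 passed the filter on low counts that 13576 genes passed. The libraries were total RNA-seq of quadriceps from mice aged 12 weeks, 3 from wild-type (WT) mice and 3 from HSA-LR mice (HSALR in the labels). The HSA-LR line holds the human gene of skeletal actin as a transgene, with some 220 CTG repeats in it. The actin promoter is active in skeletal muscle, where the CUG repeat RNA binds MBNL splicing factors, and the line serves to model myotonic dystrophy type 1. The strain, sex and litters of the 3 WT and 3 HSA-LR samples are not given in the sources used here, and the transgene RNA was not analysed here. The labels do not say that the samples came from separate animals, so a p-value here measures no more than the spread between samples, which may be technical.

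Glycolysis splits glucose into pyruvate in a preparatory phase that spends ATP and a payoff phase that returns more of it. In fast muscle fibres it supplies energy during brief, intense contraction, and muscle carries its own isozymes for many steps. Phosphofructokinase commits sugar phosphate to the pathway, and fructose bisphosphatase runs that same step backwards. The muscle fructose bisphosphatase is known for its part in making glycogen from lactate.

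In HSA-LR quadriceps the RNAs of the first kinase and of phosphofructokinase were lower and that of fructose bisphosphatase was higher. Hk2 was at 69.7% of its WT mean, Pfkm at 61.3%, and Fbp2 at 242% (n = 3 libraries per group). These 3 of the 10 members passed edgeR's quasi-likelihood test at a Benjamini-Hochberg adjusted p under 0.05. Across all genes tested 11.8% were called, 7.48% lower in HSA-LR and 4.28% higher. All members but Fbp2 are abundant, however, averaging 100 CPM or more (CPM being the count divided by the TMM-scaled library size, times 1e6). Of these 9 members 2 were called, or 22.2%, against 30.0% of the 859 genes of that abundance. The median log2 fold change was -0.31 over the 10 members and 0.04 over all genes tested, and -0.41 over the 9 abundant members and -0.19 over all abundant genes. In 5 of the 10 members (Hk2, Pfkm, Fbp2, Gapdh and Pkm) the values of the groups did not overlap, against 37.8% of all genes tested. Without Fbp2 it was 4 of 9, or 44.4%, against 65.2% of the abundant genes. In these bulk samples, fewer cells of a type and less RNA per cell cannot be told apart.

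The 6 libraries held 11468959 to 15023710 counts. The RNAs 7SL and 7SK, which are not messenger RNAs, took 14.1% to 15.5% of the counts in WT and 18.8% to 43.9% in HSA-LR. The highest share was in HSA-LR replicate 1, which was also the lowest library for 9 of the 10 members. Because TPM corrects for length and these RNAs are short, they took 63.7% to 66.1% of TPM in WT and 68.0% to 83.9% in HSA-LR. Group comparisons therefore rest on TMM-scaled counts, and TPM is used for comparing genes within a library. Markers of mature muscle were high in every library, with a summed 198776 to 228263 CPM over 8 genes in WT and 71433 to 154102 CPM in HSA-LR. The largest part of that sum in the WT mean was Ttn, whose mean went from 135108 to 55048 CPM. Of these 8 genes edgeR called 1, Atp2a1, lower by 1.09 ± 0.29 (SE) on the log2 scale (adjusted p = 0.0446), and DESeq2 called 3. Mb and Cav3 had positive log2 fold changes without overlap (0.57 and 0.44), and edgeR called neither.

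The stretches just before the start sites of the 3 called members are shown because they are where transcription factors of glycolytic genes would be looked for. Each runs for 250 bases up to the annotated start site of the canonical transcript in GENCODE M39 on GRCm39, read on the strand of the gene. The stretch of Hk2 is chr6:82751453-82751702 on the minus strand, that of Pfkm chr15:98006074-98006323 on the plus strand and that of Fbp2 chr13:63006553-63006802 on the minus strand. The Pfkm stretch lies within the span of the gene, other transcripts of which start upstream. The last bases of the Hk2 stretch also fall within its gene, and the Fbp2 stretch ends where the gene begins. Capitals mark the core letters of the hypoxia response element, ACGTG or GCGTG on either strand, in Hk2 and Pfkm, and the E-box, CANNTG, in Fbp2.
Hk2: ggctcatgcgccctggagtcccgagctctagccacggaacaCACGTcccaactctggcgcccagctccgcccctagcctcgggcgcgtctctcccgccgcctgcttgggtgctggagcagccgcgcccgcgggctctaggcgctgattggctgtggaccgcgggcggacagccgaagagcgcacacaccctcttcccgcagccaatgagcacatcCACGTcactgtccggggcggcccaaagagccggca
Pfkm: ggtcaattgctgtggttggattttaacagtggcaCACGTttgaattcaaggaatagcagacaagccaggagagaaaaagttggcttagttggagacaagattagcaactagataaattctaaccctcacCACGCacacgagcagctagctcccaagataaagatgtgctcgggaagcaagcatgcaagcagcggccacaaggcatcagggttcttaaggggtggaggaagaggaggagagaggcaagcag
Fbp2: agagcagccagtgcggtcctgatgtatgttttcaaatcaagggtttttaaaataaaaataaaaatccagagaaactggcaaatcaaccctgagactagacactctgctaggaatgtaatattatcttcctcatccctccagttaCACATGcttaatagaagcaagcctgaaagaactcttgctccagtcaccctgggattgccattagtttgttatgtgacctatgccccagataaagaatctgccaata
Hk2 had 2 hypoxia cores, 209 and 35 bases before the start site, and no E-box. Pfkm had 2 cores, at 216 and 121 bases, and 1 E-box. Fbp2 had neither core and held 1 E-box, 106 bases before the start. Its stretch was also poorer in G and C, at 40.4%, than that of Hk2 (70.4%) or Pfkm (48.8%), and the median over 12298 stretches of tested protein coding genes was 56.8%. Either core was found in 6 of the 10 members (Hk2, Pfkm, Aldoa, Gapdh, Pgk1 and Eno3) and in 51.8% of all 12298 stretches. ACGTG alone was in 5 members and 20.8% of all stretches, GCGTG in 2 members and 40.5%, and the E-box in 8 members and 60.3%. An ACGTG core can be part of an E-box, as in Eno3. A match of letters is a description of the stretch and no binding was measured.

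Within a library the members spanned a wide range of abundance per length. In WT their mean TPM was 7352 for Aldoa, 1990.1 for Eno3, 1331 for Pgam2, 1275 for Gapdh, 769 for Pkm, 604 for Pfkm, 257 for Pgk1, 174 for Gpi1, 38.5 for Hk2 and 7.58 for Fbp2. Aldoa was thus 970.4-fold above Fbp2, and it ranked 10 among protein coding genes by mean WT TPM while Fbp2 ranked 3327. On GRCm39 the members lie on chromosomes 6 (Hk2 and Gapdh), 7 (Gpi1 and Aldoa), 9 (Pkm), 11 (Pgam2 and Eno3), 13 (Fbp2), 15 (Pfkm) and X (Pgk1). The order of the 10 was the same in all 6 libraries. Of the neighbours in that order, Pgam2 and Gapdh had overlapping ranges over the 3 WT libraries and the other 8 pairs of neighbours did not. The place of Gapdh depends on how reads shared with its pseudogenes are assigned, as described with that gene. Aldoa took 52.3% to 54.6% of the summed TPM of the 10 members in WT and 46.1% to 52.1% in HSA-LR.

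**Figure D1:**
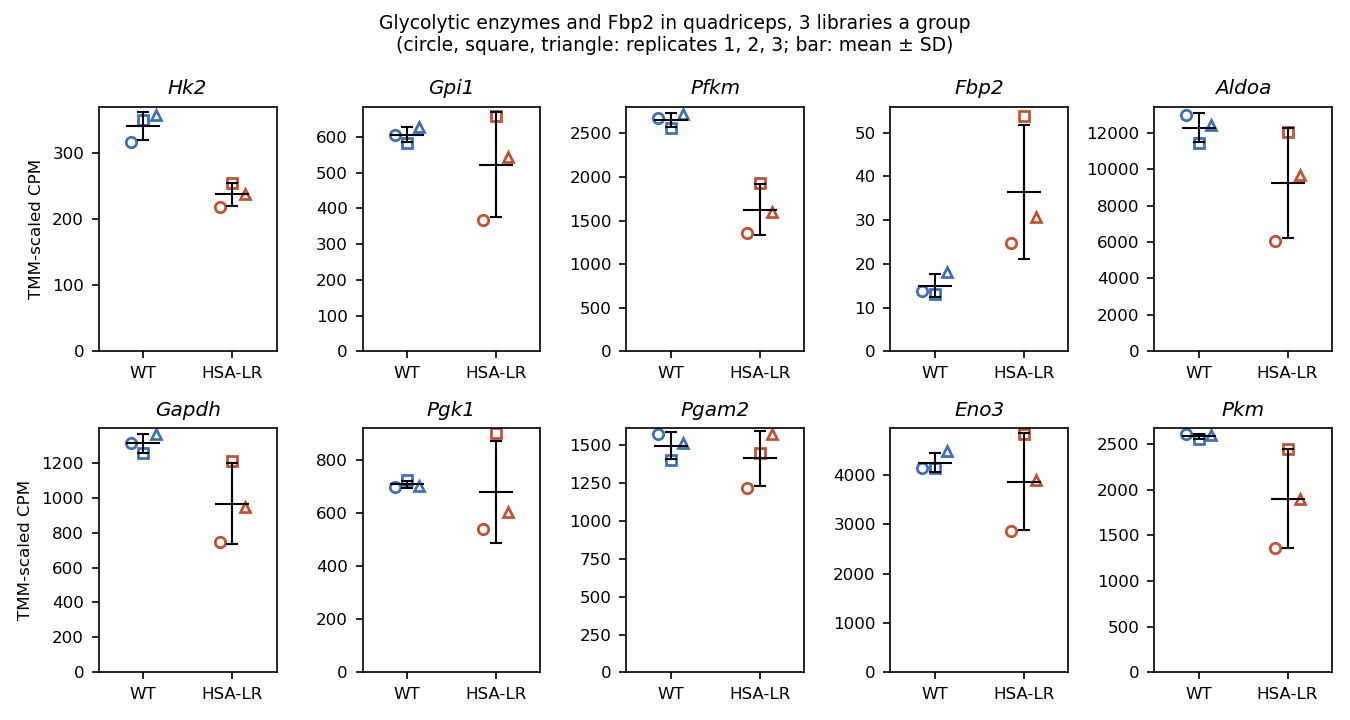
TMM-scaled CPM (y axes, from 0, on a scale of their own for each gene) of the 10 members in 3 WT (blue) and 3 HSA-LR (red) libraries. Circles, squares and triangles are replicates 1, 2 and 3, and bars are the mean ± SD. Hk2, Pfkm, Gapdh and Pkm lay lower in each HSA-LR library than in any WT library, and Fbp2 lay higher.

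In the preparatory phase, Hk2 encodes hexokinase 2, the main hexokinase of adult muscle, which traps glucose as glucose 6-phosphate. Hk2 (chromosome 6, 82699740 to 82751469, minus strand) stood at 317, 349.6 and 357 CPM in WT replicates 1, 2 and 3 and at 219, 255 and 239 CPM in HSA-LR. All 3 HSA-LR libraries were under the lowest WT library. The mean fell from 341 ± 21.5 (SD, n = 3) to 238 ± 17.9 CPM, or -0.52 ± 0.14 (SE) on the log2 scale (edgeR adjusted p = 0.0460). The call sat close to the threshold. It was lost when any WT library (adjusted p = 0.144, 0.163 and 0.170 without replicates 1, 2 and 3) or HSA-LR replicate 3 (0.120) was left out, while the fold stayed between -0.58 and -0.46.

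The abundance-weighted transcript length of Hk2 was also compared. The tables gave 5495, 5481 and 5513 bases in the WT libraries and 5405, 5398 and 5414 bases in the HSA-LR libraries, without overlap. This length is the mean over annotated transcripts weighted by their estimated abundance, and no test of isoforms was made. The share of all genes whose lengths did not overlap was not counted, so this is given as a description.

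Gpi1 encodes glucose-6-phosphate isomerase, which turns glucose 6-phosphate into fructose 6-phosphate. It measured 606, 584 and 627 CPM in WT and 368, 657 and 543 CPM in HSA-LR. The HSA-LR libraries lay on both sides of the WT range, and the log2 fold change of -0.21 ± 0.21 did not pass (edgeR adjusted p = 0.517). It ranged from -0.417 without HSA-LR replicate 2 to -0.00348 without HSA-LR replicate 1. Its 1 pseudogene copy held at most 2.04 counts in any library. With that copy, 4 other genes shared a stretch of 95% identity over at least 100 bases, most counted among them the protein coding Mrpl27. Together their counts came to 4.83% to 5.03% of those of Gpi1 in WT and 4.90% to 8.11% in HSA-LR. No Gpi1 count was a whole number, and shared reads were not separated.

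Pfkm encodes the muscle subunit of phosphofructokinase, the committed and most tightly regulated step of glycolysis. Pfkm (chromosome 15, 97990451 to 98031417, plus strand) stood at 2672, 2564 and 2721 CPM in WT and at 1353, 1931 and 1594 CPM in HSA-LR. The highest HSA-LR library was well under the lowest WT library. The mean fell from 2652 ± 80.6 to 1626 ± 290.3 CPM, or -0.71 ± 0.19 on the log2 scale (edgeR adjusted p = 0.0446). Leaving out WT replicate 1, 2 or 3 gave adjusted p = 0.169, 0.145 and 0.158, and leaving out HSA-LR replicate 3 gave 0.129, with folds between -0.85 and -0.58. When the share of 7SL and 7SK RNA entered the fit as a covariate, the log2 fold change was -0.46 ± 0.13 (adjusted p = 0.0557). That share did not overlap between groups, at 14.1% to 15.5% in WT and 18.8% to 43.9% in HSA-LR. A fit with this covariate, here and below, therefore cannot fully separate the share from genotype.

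Aldoa encodes aldolase A, which splits fructose 1,6-bisphosphate, and was the most abundant member. It measured 12952, 11409 and 12434 CPM in WT and 6054, 12034 and 9686 CPM in HSA-LR. HSA-LR replicate 2 lay inside the WT range and replicate 1 far under it. The log2 fold change was -0.41 ± 0.27 (edgeR adjusted p = 0.332), with -0.17 without HSA-LR replicate 1 and -0.65 without HSA-LR replicate 2. Its abundance-weighted length was 1164 to 1168 bases in WT and 1180.3 to 1202 bases in HSA-LR.

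Fbp2 encodes fructose bisphosphatase 2, the muscle enzyme that removes the phosphate added by phosphofructokinase. Fbp2 (chromosome 13, 62984691 to 63006552, minus strand) was the least abundant member, at 13.8, 13.2 and 18.2 CPM in WT and 24.9, 53.8 and 30.8 CPM in HSA-LR. These values rested on 196, 199 and 245 counts in WT and 262, 668 and 459 in HSA-LR, all of them whole numbers, and no other transcript reached 95% identity over 100 bases. Every HSA-LR library was above every WT library. The mean rose from 15.1 ± 2.73 to 36.5 ± 15.3 CPM, or 1.28 ± 0.29 on the log2 scale (edgeR adjusted p = 0.0318).

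HSA-LR replicate 2 held the highest Fbp2 value, and without it the log2 fold change was 0.88 ± 0.18 (adjusted p = 0.0138). The call was lost without WT replicate 1, 2 or 3 (adjusted p = 0.133, 0.125 and 0.0836) and without HSA-LR replicate 3 (0.0728), with folds of 1.18 to 1.44. HSA-LR replicate 1, the lowest library for each glycolytic member, was also the lowest of the HSA-LR libraries for Fbp2. Without it the fold rose to 1.496 ± 0.24 on the log2 scale (adjusted p = 0.0085). On the deposited TPM, of which 7SL and 7SK take a larger part in HSA-LR, it was 0.64 ± 0.45 on the log2(TPM + 0.1) scale (limma-trend adjusted p = 0.375). With TPM rescaled over protein coding genes it was 1.29 ± 0.25 (0.0343).

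The payoff phase starts with Gapdh, which encodes glyceraldehyde-3-phosphate dehydrogenase and yields NADH. Gapdh was assigned 1313, 1255 and 1366 CPM in WT and 745, 1209 and 945 CPM in HSA-LR. The groups did not overlap, though HSA-LR replicate 2 came close to the WT range. The log2 fold change of -0.44 ± 0.20 did not pass (edgeR adjusted p = 0.168), but it passed without HSA-LR replicate 2 (-0.64, adjusted p = 0.0212). Without HSA-LR replicate 1 it was -0.28 (adjusted p = 0.206), and with the covariate for 7SL and 7SK RNA it was -0.11 (0.670).

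The Gapdh values are uncertain, because reads are shared with near-identical pseudogenes. Its canonical transcript matched 77 pseudogenes at 95% identity over at least 100 bases, of which 43 held counts. The most counted was Gm13394 (chromosome 2, 28823622 to 28824621), a processed pseudogene with 99.9% identity over 1000 bases, at 39309, 36815 and 36646 counts in WT and 14373, 28572 and 32492 in HSA-LR. Gapdh itself was assigned 28.7% to 30.6% of the summed counts in WT and 26.6% to 31.5% in HSA-LR. Summed with these pseudogenes, it stood at 4581, 4108 and 4526 CPM in WT and 2361, 3910 and 3546 CPM in HSA-LR. The groups again did not overlap, and the log2 fold change was -0.43 ± 0.23 (edgeR adjusted p = 0.223). The summed TPM in WT was 3430.1 ± 98.3, above that of Eno3.

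Pgk1 encodes phosphoglycerate kinase 1, which makes the first ATP of the payoff phase. It measured 699, 725 and 703 CPM in WT and 539.8, 901 and 604 CPM in HSA-LR. The WT libraries were close together and the HSA-LR libraries lay on both sides of them, and the log2 fold change was -0.06 ± 0.21 (edgeR adjusted p = 0.874). Gm5537, a processed pseudogene identical to it over 1252 bases, was assigned 523, 581 and 665 counts in WT and 0, 903 and 774 in HSA-LR replicates 1, 2 and 3. Summing both left the log2 fold change at -0.05 ± 0.22.

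Pgam2 encodes the muscle phosphoglycerate mutase, which moves the phosphate group of 3-phosphoglycerate. It measured 1574, 1404 and 1515 CPM in WT and 1215, 1450.1 and 1573 CPM in HSA-LR. The groups overlapped, and the log2 fold change was -0.08 ± 0.17 (edgeR adjusted p = 0.768). Eno3, the muscle enolase, measured 4140.1, 4139 and 4487 CPM in WT and 2869, 4839 and 3903 CPM in HSA-LR. Its highest and its lowest library were both HSA-LR, and the log2 fold change was -0.14 ± 0.23 (edgeR adjusted p = 0.709).

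Pkm encodes the muscle pyruvate kinase, the last step, which makes pyruvate and ATP. It measured 2607, 2554 and 2593 CPM in WT and 1359.5, 2446 and 1896 CPM in HSA-LR. The SD was 27.7 CPM in WT but 543 CPM in HSA-LR, and the groups did not overlap. The log2 fold change was -0.44 ± 0.23 (edgeR adjusted p = 0.211). Without HSA-LR replicate 2 it was -0.67 (adjusted p = 0.0301) and without HSA-LR replicate 1 it was -0.24 (0.267). With the covariate for 7SL and 7SK RNA it was -0.04 (adjusted p = 0.901). The tables count all Pkm transcripts together, so the muscle and the other splice form were not separated.

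In edgeR's test 2 of the 4 preparatory members were called, both lower, and 0 of the 5 payoff members. All 9 averaged 100 CPM or more, and 30.0% of the 859 genes of that abundance were called. None of the 5 payoff members reached an unadjusted p under 0.05, and DESeq2 and limma-voom also called 0 of them. Their log2 fold changes had a median of -0.14, against -0.46 for the preparatory members. These folds depended on how transcript length was handled. With a trend over transcript length removed, Gapdh was -0.79, Pgk1 -0.15, Pgam2 -0.42, Eno3 -0.31 and Pkm -0.50. In that fit Hk2 was -0.43, Gpi1 -0.26, Pfkm -0.71 and Aldoa -0.64, and edgeR called none of the 9. Whether the phases differ was not tested. For Gpi1, Aldoa, Pgk1, Pgam2 and Eno3 the sign of the fold turned in the fit with that covariate. For all 9 glycolytic members together, the summed CPM was 26882, 24983 and 26804 in WT and 14721, 25720.4 and 20982 in HSA-LR. HSA-LR replicate 2 thus lay inside the WT range and the other HSA-LR libraries under it. The TPM of all 10 members made up 4.84% ± 0.127 of that of protein coding genes in WT and 3.95% ± 0.817 in HSA-LR.

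**Figure D2:**
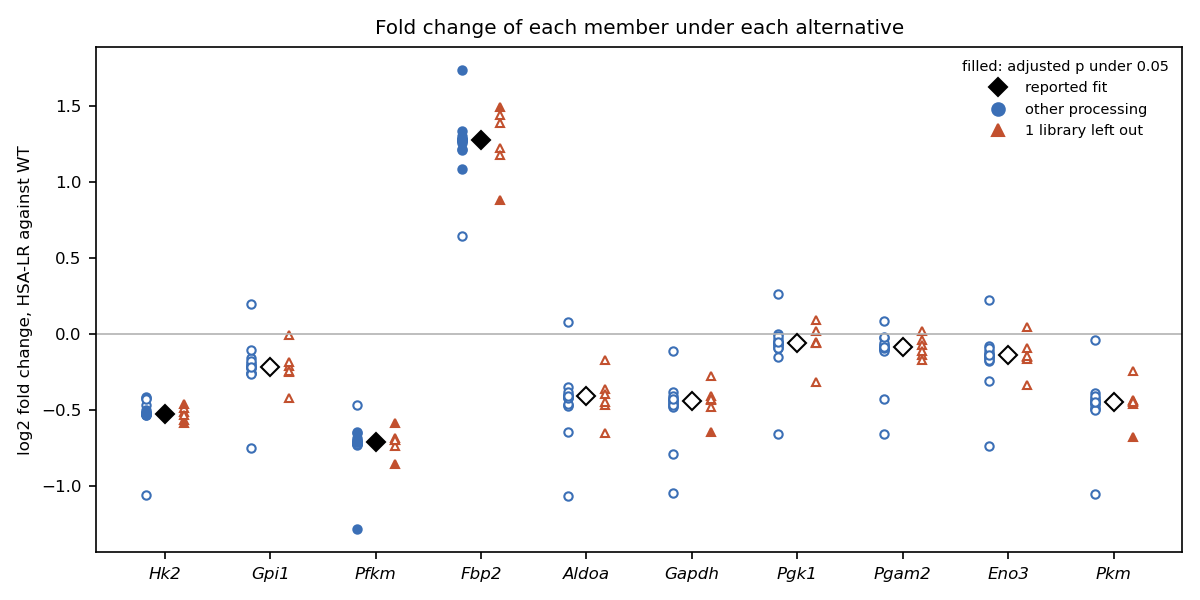
Log2 fold change of each member, HSA-LR against WT (y axis), in the reported fit (diamonds), with other processing (blue circles) and with 1 library left out (red triangles). Filled symbols have an adjusted p under 0.05. Fbp2 stayed above 0 and Hk2 and Pfkm under 0 in each of the 20 alternatives, but Hk2 was called in 9 of them, Pfkm in 11 and Fbp2 in 15.

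Ratios of TPM within a library do not depend on library size or on the 7SL and 7SK share. Fbp2 stood at 1.15%, 1.14% and 1.48% of Pfkm in WT and at 4.07%, 6.19% and 4.28% in HSA-LR. The smallest HSA-LR value was thus well above the highest WT library, and the ratio of means was 3.85-fold. Since Pfkm fell and Fbp2 rose in the test above, the direction of this ratio is no separate evidence. Pfkm relative to Pgam2 was 43.5%, 46.7% and 46.0% in WT and 28.7%, 34.0% and 26.1% in HSA-LR, again without overlap. These 2 differ in abundance-weighted transcript length, at 2806 and 840 bases in the WT mean. With a trend over transcript length removed, the log2 fold change of Pgam2 went from -0.08 to -0.42. That of Pfkm stayed at -0.71. Gapdh relative to Eno3 was 65.6%, 63.3% and 63.4% in WT and 52.9%, 49.6% and 52.3% in HSA-LR, and this ratio carries the uncertainty of Gapdh. Hk2 relative to Pfkm, at 5.87% to 6.78% in WT and 6.66% to 8.19% in HSA-LR, overlapped between groups. So did Pfkm relative to Aldoa, at 7.81% to 8.54% and 6.30% to 8.63%. With 3 against 3 libraries an exact two-sided permutation test of one ratio cannot go under p = 0.1, so these are given as values.

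**Figure D3:**
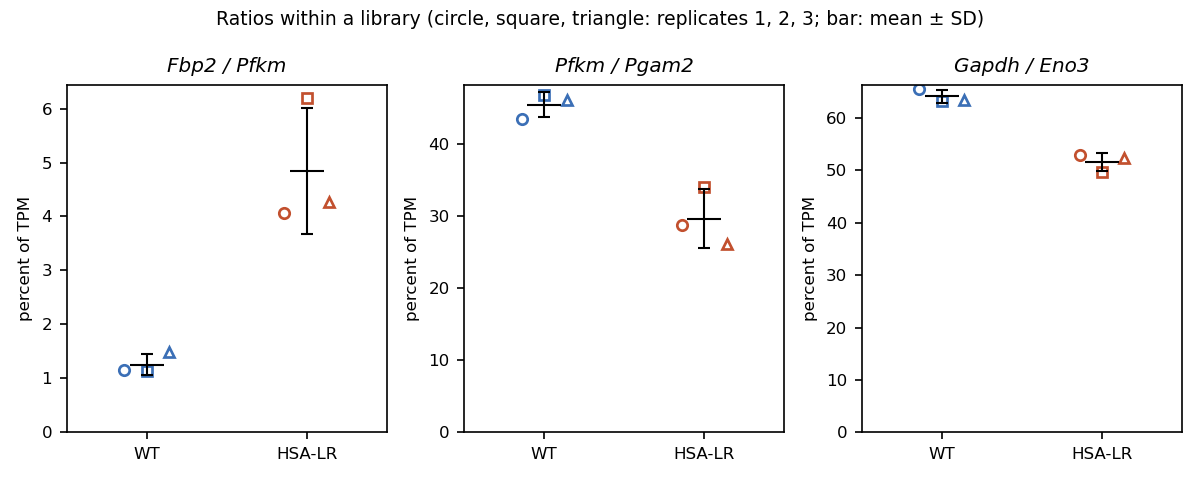
TPM of Fbp2 as a percent of Pfkm, of Pfkm as a percent of Pgam2 and of Gapdh as a percent of Eno3 (y axes, from 0) in each WT (blue) and HSA-LR (red) library. Symbols are replicates 1 to 3 and bars the mean ± SD. None of these 3 ratios overlapped between groups, and that of Fbp2 to Pfkm was 3.85-fold higher in HSA-LR by the means. Pfkm and Pgam2 differ in transcript length (2806 and 840 bases in the WT mean).

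As a share of the summed TPM of the 10 members, Eno3 took 13.6% to 14.8% in WT and 16.4% to 17.3% in HSA-LR, and Gpi1 took 1.19% to 1.33% and 1.38% to 1.51%. Pfkm took 4.27% to 4.47% in WT and 3.25% to 3.97% in HSA-LR. Fbp2 took 0.0491% to 0.0652% in WT and 0.139% to 0.203% in HSA-LR. These shares and that of Aldoa did not overlap between groups, the ones of Eno3, Gpi1 and Fbp2 being larger in HSA-LR and the others smaller. Because the shares add up to a fixed whole, a smaller share of Aldoa makes others larger. In the count fit the log2 fold changes of Eno3 (-0.14) and Gpi1 (-0.21) were negative, and neither was called. The sum also holds Gapdh with its uncertainty.

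The non-muscle isozymes were scarce beside the muscle forms. Of 16 listed, 9 passed the filter, and Hkdc1, Fbp1, Gapdhs, Pgk2 and Pklr had no count in any library, against a floor of 3 counts or 0.200 to 0.262 CPM per library. In edgeR's test 0 of the 9 were called, although 5 had an unadjusted p under 0.05, and DESeq2 and limma-voom also called 0. With no filter edgeR called 2, Hk1 and Pfkp, and without HSA-LR replicate 1 it called 1 of the listed isozymes. Their median log2 fold change was 0.74, and 8 of 9 were positive. Eno1, the widely expressed enolase, measured 29.6 ± 4.36 CPM in WT, with 38.3 ± 10.1 CPM in HSA-LR (0.38 ± 0.20 on the log2 scale, edgeR adjusted p = 0.227). Pgam1 measured 15.9 ± 4.65 and 26.4 ± 10.6 CPM (0.74 ± 0.31, edgeR adjusted p = 0.153). The TPM of Pfkp, the platelet phosphofructokinase, was 0.170% to 0.246% of Pfkm in WT and 0.373% to 0.961% in HSA-LR, without overlap. The fall of Pfkm enters this ratio, and the CPM of Pfkp itself overlapped between groups, at 5.79 to 7.20 in WT and 7.09 to 15.7 in HSA-LR (0.84 ± 0.28 on the log2 scale, edgeR adjusted p = 0.0763). Hk1, a hexokinase of most tissues, stood at 1.96% to 4.95% of Hk2 in WT and 5.71% to 11.3% in HSA-LR. The fall of Hk2 enters this ratio, and the TPM of Hk1 itself overlapped between groups. Its CPM did not, at 4.03 to 6.42 in WT and 6.61 to 11.9 in HSA-LR, but it was not called (0.82 ± 0.27, edgeR adjusted p = 0.0743).

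Among 9 tested regulators and other glycolytic enzymes, 3 were called and all were lower in HSA-LR. Pfkfb3, which makes and degrades fructose 2,6-bisphosphate, the activator of phosphofructokinase, fell from 149.7, 117 and 177 CPM to 33.7, 53.4 and 72.3 CPM. Its log2 fold change was -1.47 ± 0.28 (edgeR adjusted p = 0.0185). Tigar, a phosphatase that degrades fructose 2,6-bisphosphate, fell from 73.5 ± 9.62 to 40.5 ± 5.22 CPM (-0.86 ± 0.15, edgeR adjusted p = 0.0130). Pgp, a phosphatase of phosphoglycolate and related side products, fell from 41.9 ± 3.07 to 28.6 ± 4.81 CPM (-0.55 ± 0.15, edgeR adjusted p = 0.0469). Pfkfb3 lost its call without WT replicate 1 or 3 (adjusted p = 0.0861 and 0.0797), Tigar also without HSA-LR replicate 3 (0.0706), and Pgp in all cases but HSA-LR replicate 2 (0.0502 to 0.166). With the 7SL and 7SK covariate Tigar alone of the 3 was called, and with the replicate number as a block Pfkfb3 and Tigar.

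Gluconeogenic enzymes other than Fbp2 gave 0 calls among the 4 tested, none with an unadjusted p under 0.05, and none by DESeq2 or limma-voom. Pck1, the cytosolic phosphoenolpyruvate carboxykinase, ranged from 0.494 to 56.6 CPM in WT and from 1.61 to 246.9 CPM in HSA-LR, or 1.94 ± 2.17 on the log2 scale (edgeR adjusted p = 0.587). The summed level of 5 adipocyte markers ranged as widely, from 6.64 to 244 CPM in WT and from 24.9 to 799.5 CPM in HSA-LR. In both groups the library with the highest Pck1 was also the highest for these markers. The part of adipose RNA in the Pck1 values was not tested. Pcx, pyruvate carboxylase, measured 52.1 ± 8.87 and 54.6 ± 33.2 CPM (0.07 ± 0.41, edgeR adjusted p = 0.920).

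Of 11 genes of the glycerol phosphate and pentose phosphate branches, 1 was called. Gpd2, the mitochondrial glycerol-3-phosphate dehydrogenase, which passes electrons of cytosolic NADH to the respiratory chain, fell from 141 ± 9.13 to 83.3 ± 19.6 CPM (-0.76 ± 0.19, edgeR adjusted p = 0.0344). With the covariate the log2 fold change of Gpd2 was -0.396 (adjusted p = 0.119), and the call was also lost with the replicate block (0.0598) and an offset for effective length (0.0981). Transcription factors of glycolytic genes gave 5 calls among 9, a share of 55.6% against 11.8% of all genes tested. The list was chosen with earlier results of these data known, so this share does not show an excess. Mlxip, a glucose-sensing factor, was lower by 1.07 ± 0.18 on the log2 scale (edgeR adjusted p = 0.0102). Epas1, a hypoxia-inducible factor, fell from 94.5 ± 2.00 to 60.1 ± 5.36 CPM (-0.65 ± 0.13, adjusted p = 0.0165). Six4 and its cofactor gene Eya1, which act on fast muscle genes, were lower by 0.61 ± 0.14 and 0.69 ± 0.19. Myc was higher, at 1.60 ± 0.129 and 4.04 ± 0.440 CPM (1.34 ± 0.28, adjusted p = 0.0207). With the replicate block 1 of the 5 factors, Mlxip, was called, and the adjusted p of the others was 0.0518 for Epas1, 0.0564 for Six4, 0.0766 for Eya1 and 0.0520 for Myc. With the covariate Six4 (-0.39, adjusted p = 0.147) and Eya1 (-0.43, 0.242) lost the call. The 3 HSA-LR libraries lay close together for Myc and Epas1, unlike for most members.

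**Figure D4:**
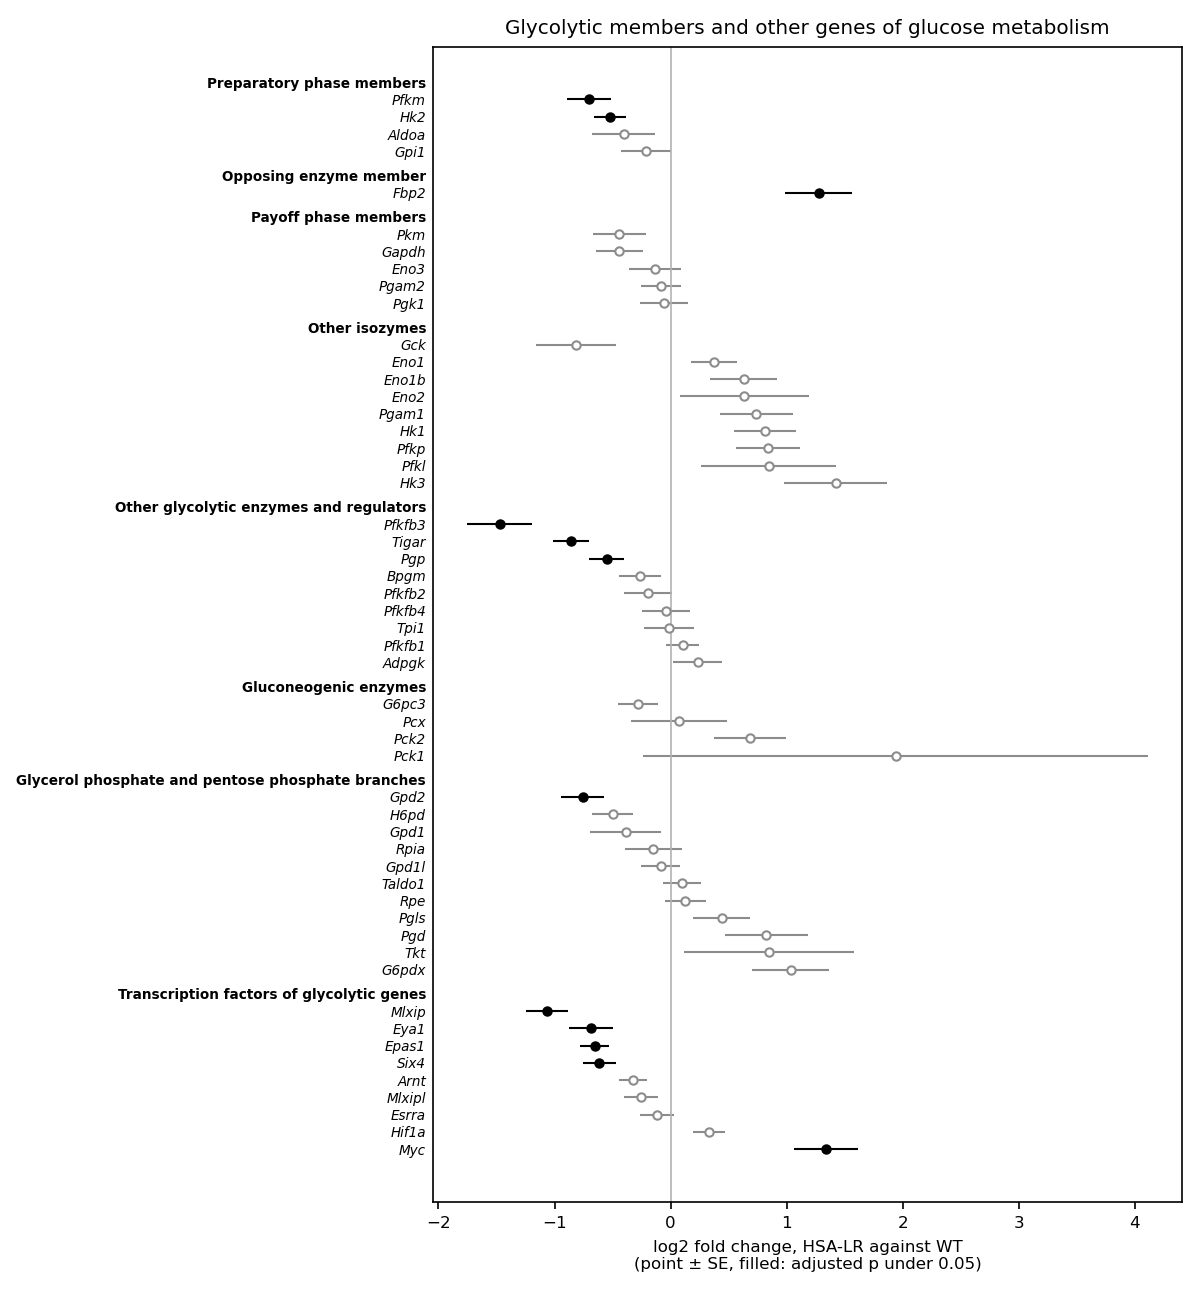
Log2 fold change, HSA-LR against WT (x axis, point ± SE), of the 10 members and the tested genes of 5 other lists of glucose metabolism, with filled points for an adjusted p under 0.05. Pfkfb3 is the most negative and Fbp2 the only filled positive point among enzymes, and Myc the only one among transcription factors.

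Fbp2 lies beside Fbp1 and then Aopep, the host gene of the miR-23b cluster of microRNAs that the study was concerned with. The starts of Fbp2 and Aopep are 106097 bases apart, on opposite strands. It measured 42.7, 51.2 and 58.1 CPM in WT and 65.0, 88.4 and 77.0 CPM in HSA-LR, higher in all 3 HSA-LR libraries (0.60 ± 0.17, edgeR adjusted p = 0.0477). The call of Aopep was lost without any 1 library other than HSA-LR replicate 1 (adjusted p of 0.0565 to 0.192). With edgeR it was also lost with the replicate block (0.0635), the length offset (0.0896) and the length trend removed (0.163). It was lost with limma-trend on either TPM scale too. DESeq2, limma-voom, other scaling factors and library sizes, other filters and the covariate kept it. Fbp1 had no count. Within 500 kb of Fbp2, 5 other genes were tested, and Aopep was the one called. The gene was looked at because of its place, and whether the neighbours are linked was not tested.

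Markers of some other cell types also differed between the groups. The 8 macrophage markers were all above the WT range in each HSA-LR library, with a summed 138 to 155 CPM in WT and 205 to 607 CPM in HSA-LR, and 5 of them were called (edgeR): Adgre1, Cd68, Csf1r, Cd163 and Trem2. DESeq2 called 7, limma-voom 4 and edgeR with the covariate 1, Cd68. Their most abundant gene, Lyz2, measured 49.97 ± 4.63 and 137 ± 94.4 CPM. Of 5 fibroblast markers edgeR called 1, Col3a1 (1.35 ± 0.35, adjusted p = 0.0456), DESeq2 3 and limma-voom 0. The macrophage sum was highest in HSA-LR replicate 1, the library in which 9 members were lowest, and among HSA-LR libraries it was lowest in replicate 2, where Fbp2 was highest. The 9 fast fibre markers had negative fold changes throughout, with a median of -0.49, and edgeR called 1 of them, Atp2a1, DESeq2 4 and limma-voom 1. The 8 slow fibre markers gave 0 calls by edgeR, DESeq2 or limma-voom, none with an unadjusted p under 0.05, and their sum ranged from 119 to 1643 CPM in WT and from 218 to 1176 CPM in HSA-LR. Myh8, a myosin of developing fibres, was higher (1.305 ± 0.27, edgeR adjusted p = 0.0204), with means of 2.40 ± 0.246 and 5.97 ± 1.52 CPM. Of the others in its list, Myh3 (1.23, edgeR adjusted p = 0.0648) and Myog (-0.34, 0.313) were not called, and Mymk and Mymx were too low to be tested. Of the 4 endothelial, 5 erythroid and 5 adipocyte markers, edgeR, DESeq2 and limma-voom called 0, none had an unadjusted p under 0.05, and each list's sum overlapped between groups. The part of cell composition in the values of the members was not tested. Of the 18 called genes named here that are not members, all 18 lost the call without WT replicate 1 or without WT replicate 3, 15 without WT replicate 2 and 17 without HSA-LR replicate 3, with adjusted p of up to 0.192. Pgp and Eya1 were no longer called without HSA-LR replicate 1, nor Aopep without HSA-LR replicate 2. Of the same 18 genes, 11 lost the call with the covariate, 10 with the replicate block and 9 with the effective length offset. With the covariate the log2 fold change of 10 moved by over 1.5 times.

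Across the 6 libraries the 9 glycolytic members varied together. Their 36 pairs had correlations of log2 CPM from 0.388 to 0.990 with a median of 0.820, while the 9 pairs with Fbp2 ran from -0.696 to 0.278. These are descriptions over 6 libraries that share depth, composition and group. Among the 6883 genes averaging 10 CPM or more, those most like Pfkm were Ldb3 (r = 0.9999), Oxsr1 and Ogfod1 (both r = 0.999), and 713 genes had r over 0.95. For Fbp2 they were Tle1 (0.990), Arl6ip5 (0.987) and Commd3 (0.986), and 39 genes had r over 0.95.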

How the data were processed

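Total RNA of quadriceps from 3 WT and 3 HSA-LR samples was sequenced, and samples were grouped by the genotype and replicate number in their titles. The authors deposited expected counts, which RSEM estimates for each gene by dividing reads that match several genes. The TPM values deposited by the authors are these counts corrected for effective length and brought to a fixed sum per library. RSEM 1.3.1, Bowtie2 and GRCm39 are named in the submitters' processing notes, and the release of the annotation was not given there or in the other sources used here. Other columns, length and effective length, were used as given, and the FPKM deposited by the authors was not used.

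Counts were rounded, filtered with filterByExpr, scaled by TMM and tested with edgeR 4.0.16's robust quasi-likelihood test (R 4.3.3, limma 3.58.1) with the group as the only term, since the study's methods do not describe these libraries. The Benjamini-Hochberg adjustment ran over all 13576 genes. The SE of a log2 fold change was its size over the root of the F statistic. Symbols, positions and start sites came from GENCODE M39, matched by Ensembl identifier for 53400 of 53947 genes. Near-identical stretches were sought with blastn between the canonical transcripts of the members and all transcripts. The floor of 3 counts covers counting error only. Replicates differed from each other by more than sampling noise. The chi-square per degree of freedom was 9.07 to 10.7 between WT libraries and 27.8 to 177 between HSA-LR libraries. The fit shares 1 estimate of the spread per gene between both groups, so its p-values pool these unlike spreads. The fit was also run on simulated counts drawn from its own means and dispersions. No simulated library differed from the others as a whole, so that case was not tested.

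All 10 members were named. From each of 5 other pathway lists every called gene was named, or the 2 most abundant where none was called, and from marker lists the called genes, those at 0 and the most abundant. The 3 genes most like Pfkm and Fbp2 were named by Pearson correlation. The members and lists were chosen with earlier results of these data known. Some genes of the lists are not reported here and were left out of the counts. As alternatives, DESeq2 1.42.0, limma-voom, limma-trend on TPM, other scaling factors and library sizes, other filters, a length offset, a replicate block, a covariate for 7SL and 7SK RNA and the omission of each library were run. Added after seeing the data were TPM over protein coding genes, removal of a loess length trend, and summing near-identical pseudogenes.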

Additional observations from a re-analysis of the deposited data

How the results depend on the processing

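The number of members called was 3 with DESeq2, limma-voom, RLE factors, library sizes without the most abundant genes, no filter, a stricter filter and summed pseudogenes, each time Hk2, Pfkm and Fbp2, and 2 with TPM over protein coding genes (Pfkm and Fbp2). It was 1 with limma-trend on log2(TPM + 0.1) (Pfkm) and 1, Fbp2, with upper-quartile factors, the effective length offset, the covariate, the replicate block and the length trend removed. With 1 library left out it ranged from 0 to 5. The number of genes called was 519 with limma-trend on log2(TPM + 0.1), where 9.63% of calls were higher against 36.4% in the reported fit and the median of all genes shifted by -0.55, 747 with the effective length offset, 935 with the covariate, 799 with the replicate block and 624 with TPM over protein coding genes. With 1 library left out it ranged from 166 without WT replicate 1 to 3294 without HSA-LR replicate 2. The share of higher calls was 48.2% with upper-quartile factors and 48.9% with TPM over protein coding genes. With the covariate the sign turned for Gpi1 (0.201), Aldoa (0.0792), Pgk1 (0.264), Pgam2 (0.0898) and Eno3 (0.226), and with upper-quartile factors for Pgk1 (0.00141). With 1 library left out, Pgk1 ranged from -0.316 to 0.0948, Pgam2 from -0.172 to 0.0239 and Eno3 from -0.335 to 0.0483, all 3 positive without HSA-LR replicate 1 and Pgk1 also without HSA-LR replicate 3 (0.0203). None of these was called in either direction. The cause was not tested, and the covariate could not be fully separated from genotype, since its values did not overlap between groups. The order of the members by level was the same for 10 of 10 with CPM per kilobase of effective length. Deviations of same-numbered samples correlated at 0.00052, -0.095 and 0.228, and those of differently numbered samples at -0.168 to 0.160. Whether replicate numbers pair the samples cannot be decided from these values. With the replicate block, Hk2 had an adjusted p of 0.105, Pfkm of 0.1002 and Fbp2 of 0.0464. Each member held at least 196 counts in every library.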
